A study of Homo sapiens with 12 samples.

Results

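The BCL2 family was followed in human U937 cells that had been made to express the leukemia fusion PML-RARA. Of the 10 genes chosen by name (BCL2, BCL2A1, MCL1, BCL2L1, BCL2L11, BAX, BAK1, PMAIP1, BBC3 and BID), 9 have at least 1 probe set that the platform annotation ties to them alone, out of 19775 such genes on the array. BBC3, which encodes PUMA, is not analysed here, because its 1 probe set carries further gene symbols. The 9 genes have 30 probe sets, and a gene's values are those of its strongest probe set (by mean log2 signal over the arrays) unless another is named. All of these 9 chosen probe sets passed the filter on low signal, as did 27 of the 30.

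U937 is a monocytic line from a histiocytic lymphoma. The cells were electroporated with a plasmid encoding GFP only (the control), GFP joined to the wild-type fusion (PRWT), or GFP joined to PR2VR, which the series title implies is the protease-resistant form although its sample labels also call it wild type. GFP-positive cells were sorted at 6 h or 9 h, and each construct was measured on 2 Affymetrix arrays per time point, 12 arrays in all. All titles say transfected, but those of fusion samples count hours post infection and those of GFP samples hours post transfection. The titles do not say whether fusion and control cells were handled differently. The labels do not say whether the 2 arrays of a group came from separate transfections, so a p-value reflects the spread among these samples alone, which may be technical. Signals are the authors' MAS5 values, scaled to a common trimmed mean.

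The BCL2 family decides whether the outer mitochondrial membrane is opened, the step that releases cytochrome c and commits a cell to apoptosis. Guardians such as BCL2, BCL-xL (BCL2L1), MCL1 and A1 (BCL2A1) hold the pore-forming effectors BAX and BAK in check, and BH3-only proteins such as BIM (BCL2L11), NOXA (PMAIP1), PUMA (BBC3) and BID occupy the guardians or activate the effectors. NOXA binds chiefly MCL1 and A1, whereas BIM binds every guardian. In myeloid cells MCL1 and A1 are short-lived survival factors, and BCL2 is known for its high level in many acute leukemias.

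The arrays were checked first. RARA read 48.2 to 309.2 on the GFP arrays, 11971 to 58985 with PRWT and 9281 to 41097 with PR2VR, so the fusion transcript was present where the labels place it. Of 7 monocytic markers with a probe set, 6 passed the filter (SPI1 did not), and of 9 markers of T, B, erythroid and epithelial cells 4 passed (CD3D, CD2, MS4A1 and CD79A), with no signal above 1997. Monocytic SPI1, CSF1R and TYROBP also stayed below 1997, with highest signals of 536.1, 934.6 and 1149. FCER1G, ANPEP, ITGB2 and LYZ reached 4625, 10688, 20465 and 21336. The summed signal of the 9 markers of other cells ran from 1583 to 4392 on GFP arrays, from 2146 to 3956 on PRWT arrays and from 1091 to 3411 on PR2VR arrays. The 3 arrays of 9 h number 2, one per construct, stood apart. Their ratios of 3' to 5' GAPDH signal were 2.21 to 2.75 against 3.82 to 12.9 on the other 9 arrays. In the order GFP, PRWT and PR2VR the ratios were 5.27, 4.04 and 3.99 at 6 h number 1, and 4.79, 8.28 and 3.82 at 6 h number 2. At 9 h they were 12.4, 8.14 and 12.9 for number 1, and 2.75, 2.21 and 2.38 for number 2. The part of such ratios in the fusion differences was not tested. Number 1 of PR2VR at 6 h holds the lowest values of BCL2A1 and PMAIP1 and the highest values of BCL2, BCL2L1 and MCL1. The 3 arrays of 1 time point and 1 replicate number are called a set, and there are 4 sets.

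No member passed in any of the 6 comparisons made. Members were tested with limma over 13959 genes, and a gene passed at an adjusted p under 0.05. Fusion cells against GFP, averaged over times, gave 0 of 9 members, where 0.00716% of all genes passed, and 0 of 9 with the set as a block, where 0.315% did. At an unadjusted p under 0.05 there were 0 members without the block (3.14% of genes) and 1 with it, PMAIP1 (8.4% of genes, and 3.93% with PMAIP1's direction, lower). The median log2 difference was -0.13 over the 9 members, 6 of them below 0, beside -0.018 over all genes. BCL2A1 (-0.69 ± 0.69), BAX (-0.45 ± 0.38) and PMAIP1 (-0.44 ± 0.21) had the lowest values and BCL2 (0.34 ± 0.26) the highest. That order rests in part on number 2 of GFP at 9 h, without which the values were -0.20 for BCL2A1, -0.10 for BAX, -0.51 for PMAIP1 and -0.42 for BID. In bulk RNA a lower level per cell and fewer cells with the transcript cannot be told apart.

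**Figure D1:**
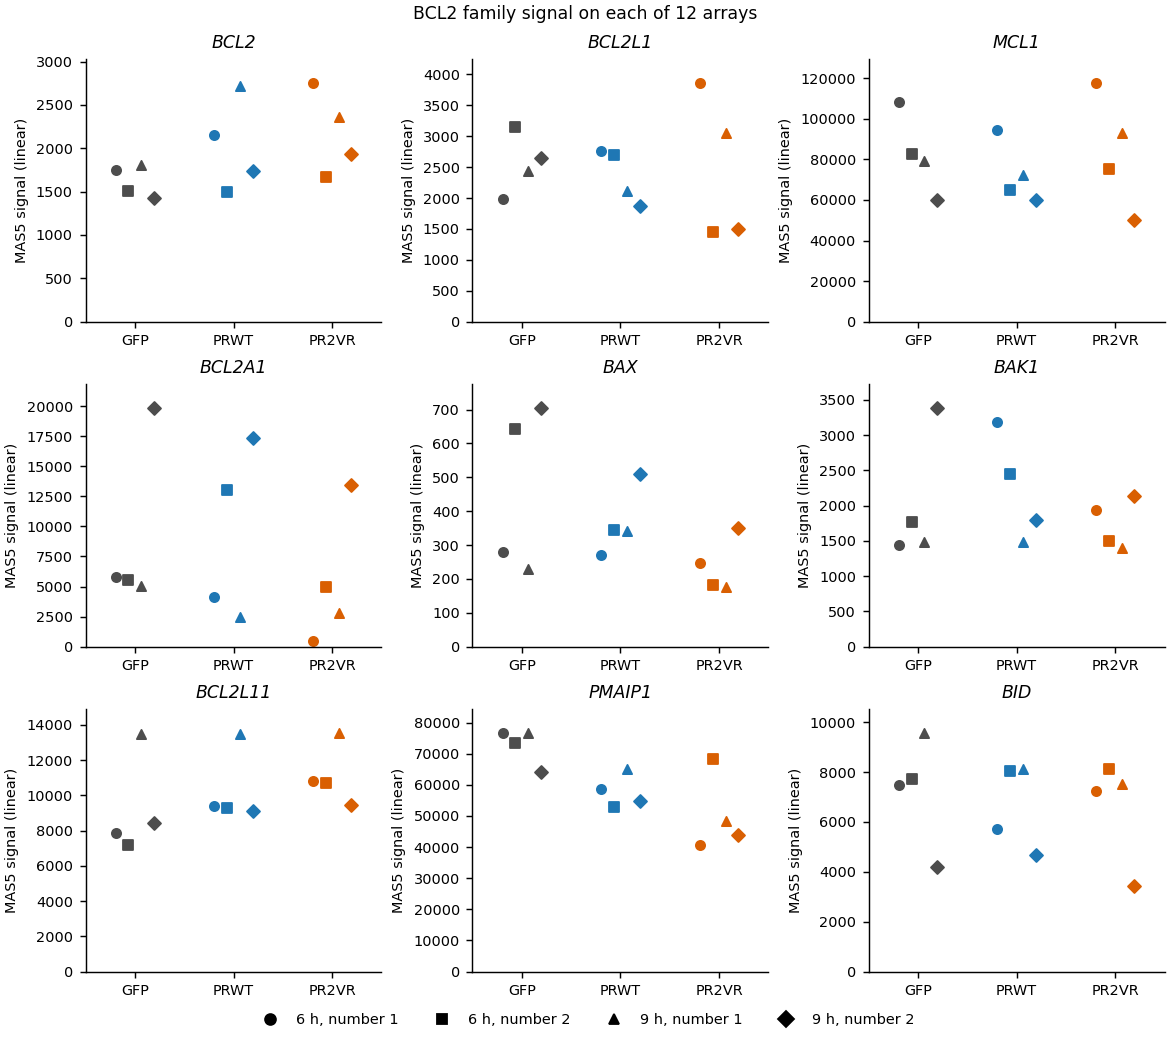
MAS5 signal (linear axis from 0) of 9 BCL2 family genes on each of 12 arrays, by construct, with marker shape giving hour and replicate number and 1 point per array. PMAIP1 is lower in the fusion arrays than in the GFP array of the same shape throughout, and BCL2A1 is highest on the 9 h number 2 arrays (diamonds).

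PMAIP1 and BCL2L11 were the members whose fusion arrays all lay on 1 side of the GFP array of their set. Their promoters are shown for that pattern, and that of BCL2A1 because its values spread most, although no member passed. RefSeq windows (GRCh38.p14, 250 bases before to 50 after the start site, 5' to 3' on the gene's strand) lie at chr18:59899746-59900045 on the plus strand for PMAIP1, at chr2:111120664-111120963 on the plus strand for BCL2L11 and at chr15:79971147-79971446 on the minus strand for BCL2A1. Capitals mark matches on either strand to the GC box GGGCGG and to TGACG, the core of the cyclic AMP response element that CREB and ATF factors bind.
PMAIP1: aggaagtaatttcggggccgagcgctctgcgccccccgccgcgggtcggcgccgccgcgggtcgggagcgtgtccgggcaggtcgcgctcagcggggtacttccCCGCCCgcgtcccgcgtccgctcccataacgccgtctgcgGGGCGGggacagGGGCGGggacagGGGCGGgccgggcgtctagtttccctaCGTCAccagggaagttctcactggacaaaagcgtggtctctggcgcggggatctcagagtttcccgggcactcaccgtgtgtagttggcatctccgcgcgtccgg
BCL2L11: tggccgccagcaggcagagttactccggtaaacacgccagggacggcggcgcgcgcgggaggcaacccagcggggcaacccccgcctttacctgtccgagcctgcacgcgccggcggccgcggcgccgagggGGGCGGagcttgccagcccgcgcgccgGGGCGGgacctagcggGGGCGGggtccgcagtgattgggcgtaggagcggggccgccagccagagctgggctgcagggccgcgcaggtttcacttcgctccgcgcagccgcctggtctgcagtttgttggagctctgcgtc
BCL2A1: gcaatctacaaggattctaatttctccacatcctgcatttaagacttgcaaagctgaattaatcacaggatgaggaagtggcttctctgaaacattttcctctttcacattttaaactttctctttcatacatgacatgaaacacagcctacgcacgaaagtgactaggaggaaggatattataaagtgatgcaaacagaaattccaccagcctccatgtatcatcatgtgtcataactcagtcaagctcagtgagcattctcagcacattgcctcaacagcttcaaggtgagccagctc
The PMAIP1 window holds 4 GC boxes and 1 CRE core, which starts 55 bases before the start site, and the BCL2L11 window holds 3 GC boxes. The BCL2A1 window has no match and a GC content of 41%, against 71.3% for PMAIP1 and 74.7% for BCL2L11. RefSeq windows were matched for 9 of the 10 genes named at the outset (BBC3 among them), 14 windows in all since BCL2L1 and BID have several. The GC box is in 9 of these 14 windows (6 genes) and in 45% of 35114 windows of this length. Windows of BID overlap in part, so some of its GC boxes are counted in more than 1 window. The CRE core is in 4 of the 14 (BCL2, BCL2L1, BAX and PMAIP1) and in 24.6% of all windows. The retinoid receptor half-sites AGGTCA and AGTTCA are in 0 of the 14 windows and in 13.8% and 10.4% of all windows. The NF-kB motif is in 0 of the 14 and 11.3% of all. Motifs were searched on both strands, no GC box overlaps a CRE core in the windows printed, and a match is only a description of the letters.

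Among the guardians, BCL2 was the member with a positive difference in the fusion cells. BCL2 read 1746 and 1503 at 6 h and 1812 and 1430 at 9 h in GFP (numbers 1 and 2). With PRWT it read 2154 and 1492 at 6 h and 2717 and 1733 at 9 h. With PR2VR it read 2753 and 1670 at 6 h and 2356 and 1934 at 9 h. The PR2VR arrays were above the GFP array in 4 of 4 sets and the PRWT arrays in 3, but the groups overlapped. PR2VR above GFP in every set held for 2 of 9 members, BCL2 and BCL2L11, and for 10.3% of all genes. The log2 difference was 0.34 ± 0.26 for both fusions (SE, 95% interval -0.22 to 0.90, adjusted p = 1), 0.28 ± 0.30 for PRWT and 0.39 ± 0.30 for PR2VR. The PRWT value was 0.12 without number 1 of PRWT at 9 h, and the PR2VR value 0.22 without number 1 of PR2VR at 6 h. The other 3 BCL2 probe sets, at far lower signal, differed by -0.24 to -0.013 for both fusions, so the sign rests on 1 probe set.

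BCL2A1, the guardian that NF-kB induces in myeloid cells, had the widest spread of the family. It read 5752 and 5522 at 6 h and 5081 and 19865 at 9 h in GFP. With PRWT it read 4100 and 13055 at 6 h and 2475 and 17379 at 9 h. With PR2VR it read 450.0 and 4972 at 6 h and 2811 and 13485 at 9 h. All 3 constructs were high in the 9 h number 2 set, and the lowest value was that of PR2VR at 6 h number 1. PR2VR was below GFP in 4 of 4 sets, with log2 differences of -3.50, -0.15, -0.84 and -0.56, although the groups overlapped. PR2VR below GFP in every set held for 3 of 9 members, BCL2A1, BAX and PMAIP1, and for 9.96% of all genes.

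The BCL2A1 difference of PR2VR from GFP was -1.26 ± 0.80 (95% interval -2.98 to 0.46, adjusted p = 1), and with the block it had an SE of 0.41, an unadjusted p of 0.011 and an adjusted p of 0.28. It was -0.44 without number 1 of PR2VR at 6 h, and -0.64 when the block was used as well, a setting added after the data were seen. The difference of PRWT from GFP was -0.12 ± 0.80. PR2VR differed from PRWT by -1.15 ± 0.80 (adjusted p = 1, and 0.72 with the block), and by -0.32 without that same array. BCL2A1 has 1 probe set, so no second readout is at hand.

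MCL1 encodes a guardian whose protein turns over fast. Its signal was 108048 and 82616 at 6 h and 79036 and 60105 at 9 h in GFP. PRWT arrays read 94286 and 64893 at 6 h and 72116 and 59936 at 9 h. PR2VR arrays read 117633 and 75354 at 6 h and 92917 and 49953 at 9 h. The 3 constructs overlapped, and the lowest array of each was that of 9 h number 2. PRWT was below GFP in 4 of 4 sets, with log2 differences of -0.20, -0.35, -0.13 and -0.0041, and PR2VR in 2 of 4. PRWT below GFP in every set held for 2 of 9 members, MCL1 and PMAIP1, and for 8.4% of all genes. The difference of both fusions from GFP was -0.091 ± 0.24 (95% interval -0.61 to 0.43), and its 6 probe sets gave -0.22 to 0.45, with 3 above 0.

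BCL2L1, whose protein BCL-xL guards mitochondria in many tissues, had signals of 1989 and 3148 at 6 h and 2441 and 2639 at 9 h in GFP. PRWT arrays read 2765 and 2702 at 6 h and 2113 and 1873 at 9 h. PR2VR arrays read 3860 and 1443 at 6 h and 3059 and 1506 at 9 h. PR2VR held both the highest and the lowest array, so its range took in those of the other constructs. Its difference was -0.13 ± 0.31 (95% interval -0.80 to 0.53), and 1 of its 4 probe sets was above 0, at 0.70.

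The effectors BAX and BAK1 encode the proteins that form the pore. BAX was weakly measured, with signals of 280.0 and 642.4 at 6 h and 228.3 and 705.2 at 9 h in GFP. With PRWT it read 271.3 and 345.2 at 6 h and 342.3 and 509.5 at 9 h. With PR2VR it read 247.5 and 181.4 at 6 h and 175.1 and 349.7 at 9 h. PR2VR was the lowest array of its set in 4 of 4 sets, below GFP and below PRWT, while the groups overlapped across sets. BAX was the 1 member of 9 with PR2VR below PRWT in every set, where 6.93% of all genes had this pattern.

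The BAX difference of PR2VR from GFP was -0.72 ± 0.44 (95% interval -1.67 to 0.24, adjusted p = 1, and 0.49 with the block). Leaving out number 2 of GFP at 9 h gave -0.37. PRWT differed from GFP by -0.19 ± 0.44 and PR2VR from PRWT by -0.52 ± 0.44 (95% interval -1.48 to 0.44). Both BAX probe sets lay below 0 for both fusions, at -0.45 and -0.65. For PR2VR against PRWT the second was at 0.13, so the probe sets were of opposite sign there.

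BAK1 read 1440 and 1764 at 6 h and 1483 and 3388 at 9 h in GFP. With PRWT it read 3185 and 2444 at 6 h and 1481 and 1798 at 9 h. With PR2VR it read 1944 and 1503 at 6 h and 1404 and 2136 at 9 h. PRWT was above GFP in both sets at 6 h and not above it in either set at 9 h. Averaged over times the fusions differed from GFP by 0.018 ± 0.28 (95% interval -0.58 to 0.62). The difference between 9 h and 6 h in the effect of the fusions was -0.85 ± 0.56 (adjusted p = 1, and 1 with the block). Leaving out number 2 of GFP at 9 h gave -0.27, and leaving out number 1 gave -1.43. In that comparison 0 of 9 members passed, where 0% of genes did. At an unadjusted p under 0.05 it gave 0 members, without and with the block (0.759% and 3.11% of genes, and 2.08% lower with the block).

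Among the BH3-only genes, PMAIP1 was the member below GFP in every set with both fusions. It read 76734 and 73345 at 6 h and 76699 and 63991 at 9 h in GFP. With PRWT it read 58730 and 52990 at 6 h and 65149 and 54871 at 9 h. With PR2VR it read 40810 and 68313 at 6 h and 48471 and 43995 at 9 h. Every fusion array was below the GFP array of its set, and the groups overlapped only through the GFP array of 9 h number 2, PRWT at 9 h number 1 and PR2VR at 6 h number 2. This pattern, 8 of 8 within-set differences below 0, held for 1 member of 9 and for 2.76% of all genes; both fusions of a set share its GFP array.

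For both fusions the PMAIP1 difference was -0.44 ± 0.21 (95% interval -0.89 to 0.0096, adjusted p = 1), which is a 0.737-fold level. With the set as a block the interval was -0.78 to -0.10, the unadjusted p 0.015 and the adjusted p 0.41. PRWT differed from GFP by -0.33 ± 0.24 and PR2VR by -0.55 ± 0.24 (95% interval -1.07 to -0.034, adjusted p = 1, and 0.27 with the block). PR2VR differed from PRWT by -0.23 ± 0.24, and by -0.040 without number 1 of PR2VR at 6 h. Without that array PR2VR differed from GFP by -0.37. The second PMAIP1 probe set gave -0.30 ± 0.50 for both fusions, with signals from 9654 to 90482, so it had the same sign with a far wider spread.

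**Figure D2:**
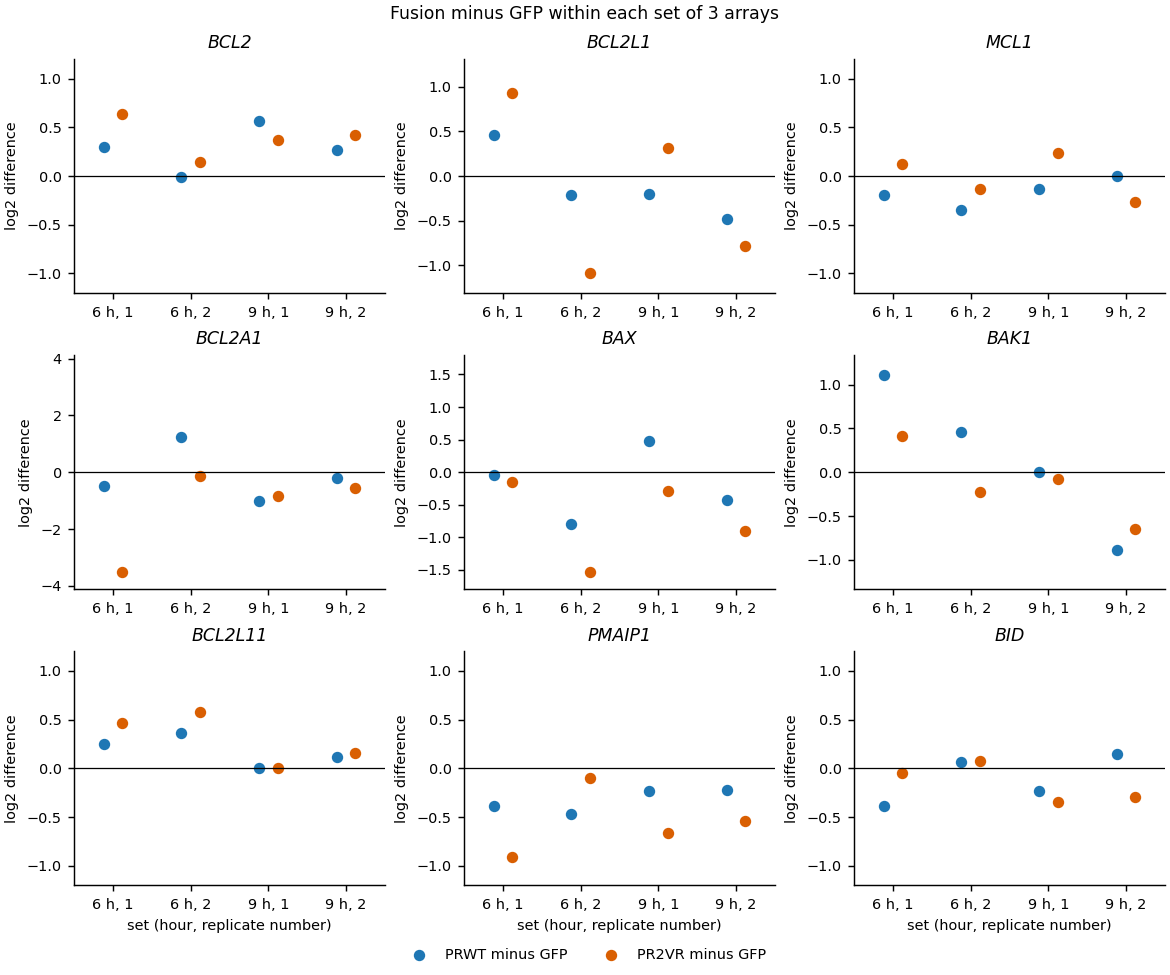
Log2 difference of each fusion from the GFP array of its set (hour and replicate number on the x axis), 1 point per fusion array, for 9 genes with separate y scales. All 8 points are below 0 for PMAIP1 and above 0 for BCL2L11, where the 9 h number 1 points are at 0.0036 and 0.0090.

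BCL2L11, which encodes BIM, the BH3-only protein that FOXO factors induce, lay above GFP in every set with both fusions. It read 7847 and 7160 at 6 h and 13461 and 8435 at 9 h in GFP. With PRWT it read 9371 and 9259 at 6 h and 13494 and 9121 at 9 h. With PR2VR it read 10826 and 10699 at 6 h and 13545 and 9447 at 9 h. In every set the order was GFP, PRWT, PR2VR from low to high, but at 9 h number 1 the 3 arrays were nearly equal and all high. The pattern of both fusions above GFP in all sets held for this 1 member and for 2.74% of all genes, that of PRWT above GFP in all sets for this 1 member and for 8.5% of genes, and that of PR2VR above PRWT in all sets for this 1 member and for 7.55% of genes.

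The BCL2L11 difference was 0.24 ± 0.24 for both fusions (95% interval -0.27 to 0.76, adjusted p = 1), 0.18 ± 0.27 for PRWT and 0.30 ± 0.27 for PR2VR. Leaving out number 2 of GFP at 9 h gave 0.076 for both fusions. PR2VR differed from PRWT by 0.12 ± 0.27. Of its 7 probe sets, 6 lay above 0 for both fusions, with a range of -0.11 to 0.48. For PR2VR against PRWT 3 of the 7 were above 0, so the order of the fusions was not shared by the probe sets.

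BID, the BH3-only protein that caspase-8 cleaves to link death receptors to mitochondria, had signals of 7470 and 7713 at 6 h and 9576 and 4201 at 9 h in GFP. PRWT arrays read 5721 and 8047 at 6 h and 8138 and 4675 at 9 h. PR2VR arrays read 7235 and 8123 at 6 h and 7525 and 3423 at 9 h. All 3 constructs were lowest at 9 h number 2, and the groups overlapped. Its difference for both fusions was -0.13 ± 0.31 (95% interval -0.79 to 0.54). All 3 BID probe sets were below 0, at -0.13, -0.28 and -0.57, and none passed among 54613 probe sets (adjusted p = 1). Over the 30 probe sets of the family 0 passed in any of the 6 comparisons, and at an unadjusted p under 0.05 there were 3, all for 9 h against 6 h, where 12.4% of all probe sets had such a p.

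**Figure D3:**
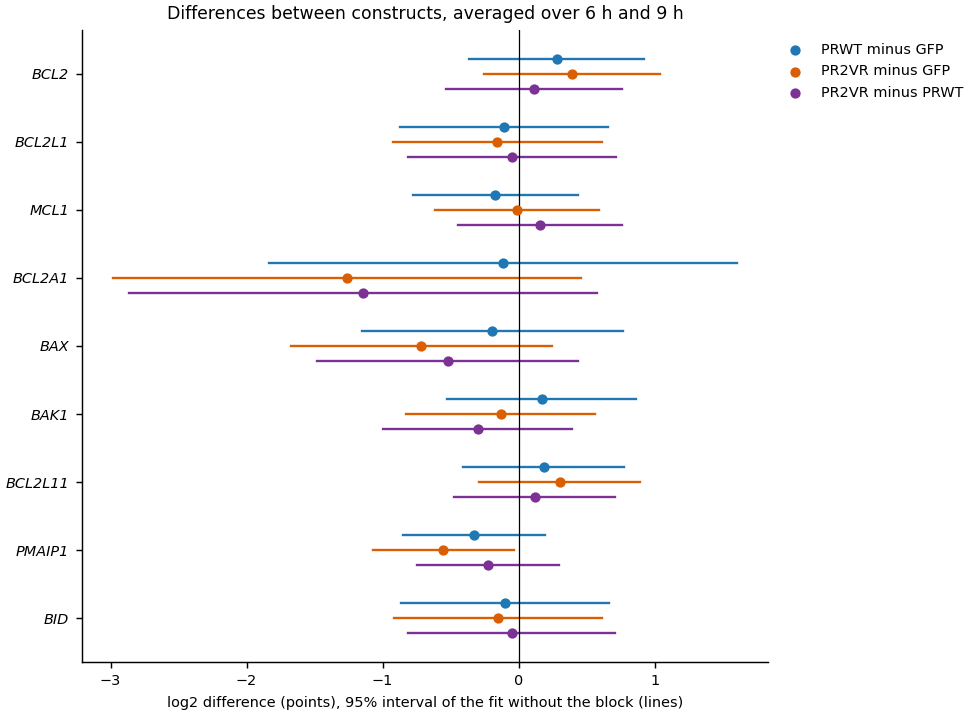
Log2 differences between constructs averaged over times (x axis; points), with 95% intervals of the limma fit without the block (lines), for 9 genes. Of the 27 intervals drawn, that of PR2VR against GFP for PMAIP1, -1.07 to -0.034 before adjustment, leaves out 0.

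The forms of the fusion were then compared with GFP and with each other. PRWT against GFP gave 0 of 9 members, with and without the block (0.00716% of genes each), and 0 at an unadjusted p under 0.05 without and with it (2.06% and 5.44% of genes, and 3.02% lower with the block). PR2VR against GFP gave 0 of 9 without the block (0.00716% of genes) and 0 with it (0.294%). At an unadjusted p under 0.05 there was 1 member without the block, PMAIP1 (3.95% of genes), and 2 with it, PMAIP1 and BCL2A1 (11.1%, and 5.47% lower). PR2VR against PRWT gave 0 of 9 by both fits, where 0% of genes passed, and at an unadjusted p under 0.05 it gave 0 members without the block (1.55% of genes) and BCL2A1 alone with it (6.86%, and 3.63% lower). The differences of PR2VR from PRWT ran from -1.15 for BCL2A1 to 0.16 for MCL1, with SEs of 0.24 to 0.80, so intervals of this width do not show that the forms act alike. RARA read lower with PR2VR than with PRWT in every set. At 6 h it was 36892 against 58985 (number 1) and 9281 against 11971 (number 2). At 9 h it was 29626 against 32912 and 41097 against 54610. The part of this in the member values was not tested.

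Time was compared over all constructs. Of the 9 members 0 passed for 9 h against 6 h, where 0.0788% of genes passed, and 0 with the set as a random block, where 0% did. There were 0 members at an unadjusted p under 0.05 in either fit (15.1% of genes without the block and 5.49% with it, 2.08% being lower). BCL2A1 differed by 0.88 ± 0.65 (95% interval -0.53 to 2.28), MCL1 by -0.39 ± 0.23, BID by -0.33 ± 0.29 and BCL2L11 by 0.28 ± 0.22. BCL2L1 (-0.19 ± 0.29), BAX (0.17 ± 0.36), BAK1 (-0.085 ± 0.26), BCL2 (0.084 ± 0.24) and PMAIP1 (-0.064 ± 0.20) were nearer 0. Hour varied only between sets, and these SEs count the 3 arrays of a set as independent. With the set as a random block every member's SE was larger. It was 0.74 for BCL2A1 (95% interval -0.70 to 2.46), 0.28 for MCL1, 0.35 for BID and 0.29 for BCL2L11. The median over all genes was 0.13 and over the members -0.064. BCL2A1 differed by -0.28 and BID by 0.19 without the 3 arrays of 9 h number 2, so the sign of both rests on that set. Probe sets above 0 numbered 2 of 3 for BID, 3 of 6 for MCL1 and 3 of 4 for BCL2L1, with 1 at 1.41. These members were below 0 by the chosen probe set, so their sign also rests on the probe set used. Of the other members with several probe sets, BCL2L11 had 6 of 7 above 0, BCL2 3 of 4, BAX 1 of 2 and PMAIP1 0 of 2. For BCL2A1, leaving out number 1 of PR2VR at 6 h gave 0.33, and leaving out number 2 gave 1.43.

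That set separated probe sets of the same gene. Its arrays had a median signal over all non-control probe sets of 387.6 to 435.8, against 238.8 to 292.4 on the other 9. The part of that shift in the values below was not tested. All 3 of its arrays were above the other 9 in 8 of the 30 family probe sets, where 11.9% of all probe sets did so, and below them in 2 of 30, where 3.79% did. By its chosen probe set MCL1 read 49953 to 60105 there against 64893 to 117633 elsewhere. By its weakest, which was below the filter on low signal, it read 407.8 to 558.4 against 13.8 to 206.3. BCL2L1 overlapped by its chosen probe set, with 1506 to 2639 against 1443 to 3860. Its weakest probe set, also below that filter, read 699.0 to 815.4 there against 26.2 to 264.2 elsewhere.

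BCL2A1 read 13485 to 19865 in that set against 450.0 to 13055 elsewhere. BID read 3423 to 4675 against 5721 to 9576 by its chosen probe set. Its other probe sets overlapped, with 4130 to 6006 against 3376 to 7092 and 1816 to 2345 against 828.6 to 3074. On the arrays of 9 h number 2, BCL2L11 overlapped by its chosen probe set, with 8435 to 9447 against 7160 to 13545. Some of its others lay wholly above there, such as 1630 to 2626 against 572.4 to 1265. The GAPDH ratio of 3' to 5' signal was lower on those arrays, as given above, and actin's was 7.79 to 10.7 against 12.5 to 58.2. The part of these ratios in the probe set values was not tested.

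**Figure D4:**
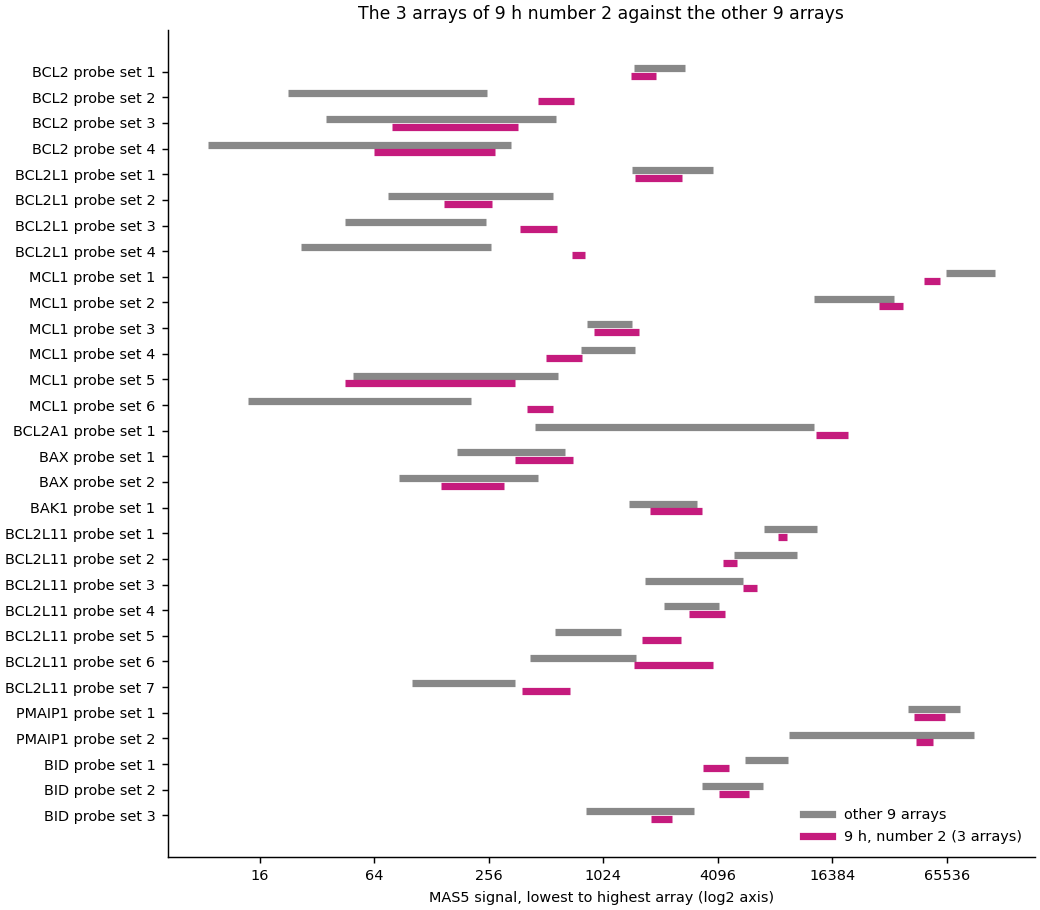
Range of MAS5 signal (log2 x axis) of the 30 BCL2 family probe sets on the 3 arrays of 9 h number 2 (magenta) and on the other 9 arrays (grey), with probe sets of a gene numbered by falling mean. In 8 probe sets the magenta range lies wholly above the grey and in 2, the first of MCL1 and of BID, wholly below.

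Other genes of the mitochondrial pathway were taken from a list of 50, of which 43 were tested. Of these, 0 passed in any of the 6 comparisons by limma with or without the block. For both fusions against GFP, 4 of the 43 had an unadjusted p under 0.05 without the block (3.14% of all genes) and 7 with it (8.4%), 22 were above 0, and the median was 0.057. For PR2VR against GFP these were 3 (3.95% of all genes) and 11 (11.1%), for PRWT against GFP 2 (2.06%) and 3 (5.44%), and for PR2VR against PRWT 0 (1.55%) and 4 (6.86%). For 9 h against 6 h they were 7 (15.1%) and 4 (5.49%), and for the difference of the fusion effect between the times 0 (0.759%) and 3 (3.11%). Of the other BH3-only and BCL2-like genes, 7 were tested, 1 was above 0 and the median was -0.27. Of the apoptosome and caspase genes 6 were tested, 5 were above 0 and the median was 0.23. The medians were 0.094 for 5 IAP genes and antagonists, -0.14 for 5 channel and released-factor genes, 0.061 for 5 genes of MCL1 turnover and 0.10 for 13 transcription factors known to act on the family, beside -0.018 for all genes.

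By the naming rule these genes are given as values. BMF, a BH3-only gene, differed by -0.74 ± 0.32 for both fusions, by -1.08 ± 0.37 for PR2VR against GFP (adjusted p = 1, and 0.23 with the block) and by -0.69 ± 0.37 for PR2VR against PRWT. MYB, a progenitor factor known to drive BCL2, differed by 0.73 ± 0.29 for both fusions (adjusted p = 1, and 0.14 with the block). ATF4, the stress factor whose targets include PMAIP1, differed by 0.65 ± 0.20 (adjusted p = 0.95, and 0.090 with the block) and TP73, a transcription factor, by 1.08 ± 0.41 at signals of 39.8 to 763. HRK, another BH3-only gene, differed by -0.67 ± 0.55 for PRWT against GFP. Between the fusion forms, XIAP, which inhibits caspases, differed by 0.98 ± 0.52, the channel gene VDAC3 by -0.44 ± 0.23 and USP9X, the enzyme that removes ubiquitin from MCL1, by 0.49 ± 0.29.

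For 9 h against 6 h, ATF4 differed by -0.86 ± 0.19 (adjusted p = 0.11 in limma) and the released factor AIFM1 by -0.93 ± 0.24. BMF differed by 1.17 ± 0.30 and HRK by 1.23 ± 0.45, the latter at signals of 11.7 to 742.2. With the set as a random block the adjusted p in limma was 0.86 for each of these genes. Their SEs were then larger, at 0.25 for ATF4, 0.35 for AIFM1, 0.44 for BMF and 0.58 for HRK. For the difference of the fusion effect between the times, the values were 0.92 ± 0.46 for BNIP3, 0.96 ± 0.51 for CASP6, 1.48 ± 0.82 for TP73 and 1.44 ± 0.95 for HRK (adjusted p = 1 for each).

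Since no member passed, the genes most like the 3 members with the smallest unadjusted p for both fusions were named by the Pearson correlation of log2 signal over 12 arrays, as a description. For PMAIP1 these were SLC6A6 (r = 0.91), EDN1 (0.90) and PUS7 (0.88). For BCL2 they were TGFBR2 (0.95), DHRS13 (0.94) and ZNF3 (0.94), and for BAX they were MORN3 (0.94), LGALS9 (0.92) and UBAC2 (0.92). The 12 arrays share 4 sets, so such values include what a set has in common.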

How the data were processed

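RNA of 12 U937 samples was measured on Affymetrix arrays, 1 per sample. The deposited intensity came from MAS5, per the submitters' processing notes (version not given in the sources used here); per the labels' protocols RNA was extracted with Trizol and labelled with biotin. The authors' values are linear, from 0.5 to 289408.3, with a common mean of 1500.2 after trimming 2% at each end, so no further normalization was applied. No detection calls or scanner files were used here. The number of arrays limits the precision.

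Groups came from the titles. Values were taken as log2(signal + 62.5), 62.5 being the 20th percentile of all values, so differences of weak genes are understated. Of 54675 probe sets (62 controls), 41091 have 1 symbol, 1801 several and 11721 are unnamed here. For each gene the probe set with the highest mean was used, and 13959 genes at or above the 40th percentile of mean log2 (7.85, a signal of 168.9) entered the fit by limma 3.58.1 (R 4.3.3): 6 group means, contrasts, variance trend, 6 residual degrees of freedom, Benjamini-Hochberg adjustment, threshold 0.05. Errors are SEs of the log2 difference.

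Same-numbered arrays deviated together (r = 0.15 to 0.36 between constructs at 6 h, 0.56 to 0.63 at 9 h, numbers from the titles), so a second fit that blocks on the set, with 4 residual degrees of freedom, is given beside results it could alter. For 9 h against 6 h the set was a random block (consensus correlation 0.41). Any 2 arrays shared equal values for 0.0677% of probe sets or fewer.

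On simulated data (13959 genes, 5 data sets, 200 changed genes, both fusions against GFP) the fit recovered 11.6% of changes of 1 and 64.8% of changes of 2 on the log2 scale, and 32.2% and 79% with the block, with 2.4 and 6 false calls per data set.

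The members, lists and settings were chosen with earlier results of these data known. Every member is named, and of the other lists up to 4 genes per comparison with the smallest unadjusted p, plus any that passed, plus RARA. BOK, BIK and BCL2L14 were below the filter, and the other list genes without a value, and 1 of 6 promoter motifs searched, are not reported here. Alternatives were the block, 2 offsets (16 and 250), no filter, all or averaged probe sets, no variance trend, quantile normalization, median centring, each array left out, and 9 h number 2 left out. After the data were seen, the block was also run without 9 h number 2 and without number 1 of PR2VR at 6 h. Sequences are from RefSeq (GRCh38.p14).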

Additional observations from a re-analysis of the deposited data

Results flagged for a closer look

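BAK1 was singled out because PRWT was above GFP in both sets at 6 h and below it in both sets at 9 h. The mean log2 difference of PRWT from GFP was 0.78 at 6 h (sets 1.11 and 0.46) and -0.45 at 9 h (sets -0.0016 and -0.89). For PRWT alone this difference was not tested. For both fusions together the interaction was -0.85 ± 0.56 (unadjusted p = 0.15 and adjusted p = 1 in limma, and 0.062 and 1 with the block). Leaving out number 2 of GFP at 9 h gave -0.27, and leaving out number 1 gave -1.43 (unadjusted p = 0.035 and adjusted p = 1 in limma). At 9 h number 1 the arrays were nearly equal (1481 and 1483), so the opposite direction there rests on number 2. Groups of 2 arrays were not checked for outlying arrays.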

How the results depend on the processing

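Only a part of the fitted differences of members, 33, was followed by value through the 24 alternatives. The fit of all probe sets was the exception, giving no member values. There, what passed is counted in probe sets, named or not, rather than in genes. Of these 33, 0 passed under any alternative. The count of members that passed, taken over all members, stayed at 0 in all 6 comparisons. With the replicate block this pairing changed no member's call; it took the genes passed from 1 to 44 for both fusions, from 1 to 41 for PR2VR against GFP and from 11 to 0 for 9 h against 6 h. Of 363 values under the alternatives other than single arrays left out, 28 changed sign, all of differences that had not passed; 15 of the 33 kept their sign under every alternative, single arrays included. The cause was not tested.

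With the mean of a gene's probe sets, the difference for both fusions was -0.0075 for BCL2, 0.058 for BCL2L1 and 0.0053 for MCL1, that of PR2VR from GFP was -0.043 for BCL2 and that of PR2VR from PRWT -0.090 for BCL2L11. For 9 h against 6 h it was 0.52 for BCL2L1, 0.024 for MCL1, -0.018 for BAX and 0.070 for BID. Quantile normalization gave -0.095 for BAX and 0.047 for PMAIP1 in that comparison, and median centring -0.20 for BCL2, -0.11 for BAX and -0.0085 for BCL2L11. Without 9 h number 2, BCL2L1 was 0.040 for both fusions and BAX 0.032 for PRWT. For 9 h against 6 h the values were then -0.28 for BCL2A1, -0.28 for BAX, 0.044 for PMAIP1 and 0.19 for BID. The block gave the same values, in a fit added after the data were seen. With the block and without number 1 of PR2VR at 6 h (added after the data were seen), BAK1 was -0.021 for both fusions and BCL2L1 0.080 for 9 h against 6 h.

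Leaving out 1 array at a time, the range for both fusions was -0.31 to 0.040 for BCL2L1, -0.20 to 0.021 for MCL1, -0.27 to 0.31 for BAK1 and -0.42 to 0.17 for BID. For PRWT it was -0.81 to 0.58 for BCL2A1 and -0.54 to 0.16 for BAX, and for PR2VR against PRWT -0.023 to 0.26 for BCL2L11. For 9 h against 6 h it was -0.033 to 0.20 for BCL2, -0.42 to 0.043 for BCL2L1, -0.062 to 0.40 for BAX, -0.28 to 0.11 for BAK1 and -0.19 to 0.060 for PMAIP1.

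Genes passed also moved with all probe sets (4 for both fusions, 2 for PRWT, 2 for PR2VR, 4 for time), with averaged probe sets (0, 0, 0 and 4), for time without the trend (2), with quantile normalization (3) and without 9 h number 2 (0), and with the block and without number 1 of PR2VR at 6 h (249, 51, 416, 18 for PR2VR against PRWT and 0 for time). Leaving out single arrays gave 0 to 53 for time, 1 to 9 for PR2VR and 0 to 2 for PR2VR against PRWT.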
